A study of Homo sapiens with 24 samples.

Results

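Sodium pump and osmolyte transport genes were examined in ER+ human breast cancer cells kept in control or hyperglycemic medium. The 9 genes were chosen by symbol from the deposited table of normalized read counts, in which each of the 9 had 1 row among 18889 genes. They are the Na,K-ATPase beta subunits ATP1B1 and ATP1B3, the pump regulators FXYD3 and FXYD5, the osmotic transcription factor NFAT5, the osmolyte transporters SLC6A6 and SLC5A3, the sorbitol-forming enzyme AKR1B1, and the cotransporter SLC12A2. The choice was made with glucose and cell line comparisons of these samples known, so levels and changes of the 9 genes are given as descriptions without a test.

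The cells were 3 established ER+ breast carcinoma lines, HCC1500, ZR-75-30 and MDA-MB-175. Each line had 4 cultures in 5 mM glucose (low glucose, the control) and 4 in 25 mM glucose (high glucose), sampled after 48 hours, which gave 24 RNA-Seq profiles in 6 groups. All groups were grown in flasks without serum, per the methods of the study, and had been conditioned in low-glucose medium before the switch. The labels of these samples name no mannitol in the low-glucose medium, so the effects of glucose and of the added solute cannot be told apart. Nothing in the labels says that the 4 replicates of a group were cultured independently, so p-values measure only the spread between these samples, which may be technical.

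The Na,K-ATPase moves sodium out of the cell and potassium into it at the cost of ATP. Its beta subunit is needed for the pump to fold and reach the plasma membrane, and small FXYD proteins tune its transport. Cells exposed to concentrated medium take up chloride salts through cotransporters such as SLC12A2 and then gather organic osmolytes, among them taurine, myo-inositol and sorbitol. NFAT5 is the transcription factor known for switching on osmolyte genes, SLC6A6, SLC5A3 and AKR1B1 among them, when the medium becomes hypertonic.

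The 24 libraries held 9140024 to 17998819 reads assigned to genes, and in HCC1500 the low-glucose libraries (13190982 to 17998819) were all deeper than the high-glucose ones (9423472 to 12140912). A floor of 3 reads corresponded to a normalized read count of 0.953 to 2.29, depending on the library. TXNIP, a glucose-induced gene used to check the labels, was higher in all high-glucose cultures of each line. Luminal epithelial markers fitted the labelled cell type, since 8 of 8 in HCC1500 and 7 of 8 in either other line had a mean of at least 10, with PGR the exception. The summed level of the leukocyte markers CD14 and LYZ was 9.44 to 27.5 in HCC1500 at high glucose against 0.861 to 4.13 at low glucose, and its part in the results was not tested. The other 3 leukocyte markers were not analysed here. Summed fibroblast markers ran from 78.1 to 289.7 across cultures, with DCN, COL1A2 or PDGFRB at 0 in some groups. COL1A1 had a mean of at least 10 in every group, LUM in MDA-MB-175 and HCC1500, and COL1A2 in MDA-MB-175. Summed endothelial markers stayed under 11 in ZR-75-30 and HCC1500 and ran from 75.3 to 95.3 in MDA-MB-175.

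HCC1500 high glucose replicate 3 stood apart from the other cultures, and HCC1500 changes are therefore given with and without it. Its mean correlation with the other 3 cultures of its group was 0.914, against at least 0.989 for any other culture, and 24.6% of genes differed from that group by more than 1 on the log2 scale, against at most 0.68% elsewhere. The difference followed transcript length, with a Spearman rho of -0.70 across 12518 genes, which share 1 library and are not independent. The length was that of the canonical transcript, a choice made after the merged exons were found to give ATP1B1 12.3 kb in place of 2.22 kb, and with merged exons rho was -0.55. Transcripts of up to 1 kb had a median difference of 1.25, and those over 8 kb had -0.77.

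Among the 9 genes, replicate 3 was above the other cultures for the short transcripts and below them for the long ones. FXYD3 (1.38 kb) was 1.52 higher on the log2 scale and ATP1B3 (1.85 kb) 0.86 higher. ATP1B1 (2.22 kb) was nearest to its group, at 0.14. The long transcripts had differences of -0.76 for SLC6A6 (6.50 kb), -0.82 for SLC12A2 (6.87 kb), -1.30 for SLC5A3 (11.6 kb) and -3.06 for NFAT5 (13.3 kb). NFAT5 lay far under the median of its length range, and FXYD5 and AKR1B1 were listed at 0 in every high-glucose HCC1500 culture.

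**Figure D1:**
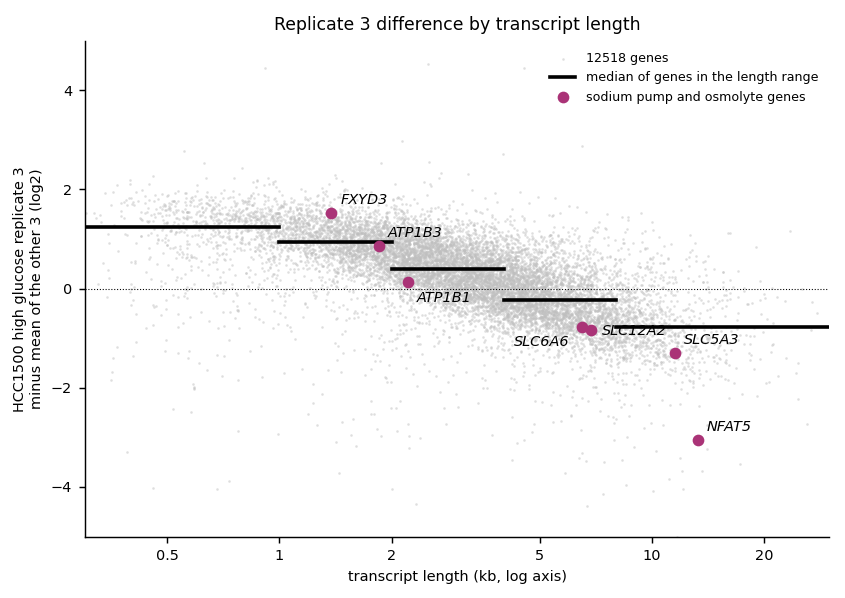
Difference of HCC1500 high glucose replicate 3 from the mean of the other 3 high-glucose cultures (log2, vertical axis) against canonical transcript length (kb, log axis), for genes with a mean of at least 10 in HCC1500. Grey points are genes (39 lie outside the axes), black bars are medians of 5 length ranges, and the labelled points are 7 of the genes studied, falling from 1.52 for FXYD3 to -3.06 for NFAT5.

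Promoter sequences are shown for 4 genes, the beta subunits ATP1B1 and ATP1B3 and the transporter SLC5A3, which were higher at high glucose, and FXYD3, which was not. The sequences are from RefSeq on GRCh38.p14, and 7 of the 9 genes had an entry (NFAT5 and SLC6A6 did not). Each is the 250 bases before the annotated start, 5′ to 3′ on the strand of the gene, with matches to GGGCGG or its reverse complement CCGCCC, the letters of a GC box, in capitals.
ATP1B1 (chr1:169106440-169106689, plus strand): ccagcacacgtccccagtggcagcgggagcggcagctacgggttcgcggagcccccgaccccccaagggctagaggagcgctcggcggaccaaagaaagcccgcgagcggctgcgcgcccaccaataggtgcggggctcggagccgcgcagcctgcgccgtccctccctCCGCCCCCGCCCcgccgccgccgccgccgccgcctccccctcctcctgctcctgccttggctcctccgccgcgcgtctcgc
ATP1B3 (chr3:141876393-141876642, plus strand): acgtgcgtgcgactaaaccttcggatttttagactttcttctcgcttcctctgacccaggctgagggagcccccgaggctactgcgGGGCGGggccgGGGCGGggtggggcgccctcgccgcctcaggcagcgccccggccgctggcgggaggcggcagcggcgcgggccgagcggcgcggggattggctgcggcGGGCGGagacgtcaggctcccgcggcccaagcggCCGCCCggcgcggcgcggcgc
SLC5A3 (chr21:34073328-34073577, plus strand): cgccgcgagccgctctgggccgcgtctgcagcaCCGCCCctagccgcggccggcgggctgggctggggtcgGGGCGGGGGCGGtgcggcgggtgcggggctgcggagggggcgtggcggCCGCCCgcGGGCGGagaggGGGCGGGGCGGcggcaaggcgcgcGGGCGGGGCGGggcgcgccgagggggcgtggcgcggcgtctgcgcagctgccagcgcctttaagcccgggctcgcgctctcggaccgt
FXYD3 (chr19:35117750-35117999, plus strand): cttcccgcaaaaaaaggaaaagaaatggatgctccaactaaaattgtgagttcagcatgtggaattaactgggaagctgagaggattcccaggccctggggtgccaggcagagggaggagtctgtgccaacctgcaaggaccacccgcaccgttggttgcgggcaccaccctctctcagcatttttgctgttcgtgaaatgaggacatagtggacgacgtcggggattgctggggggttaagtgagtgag

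The SLC5A3 window was GC-rich (84.8% G or C) and held 9 matches, ATP1B3 held 4 and ATP1B1 held 2, while FXYD3 (53.6%) held none. Of the windows not printed, that of SLC12A2 (79.6%), which was lower at high glucose in every line, held 3. The FXYD5 window held 1, and so did either window of AKR1B1, which was not higher in any line. Of the 7 genes with an entry, 6 had a match, and so did 42.6% of all 35116 RefSeq windows of this length. The window of SLC5A3 is also that of MRPS6, a mitochondrial ribosomal protein gene with the same annotated start. In all, 7 motifs were searched on both strands. CCAAT occurred in ATP1B1, ATP1B3 and AKR1B1 (32% of all windows), and GGAAA occurred in AKR1B1, FXYD3 and FXYD5 (55.6%). TGGAAA, the core of the element bound by NFAT5 and a longer form of GGAAA, occurred in none of the 7 genes (18% of all windows). CACGTG (6.34%), the exact pair of CACGTG searched for as a carbohydrate response element (0.00285%) and TATAAA (10.7%) also occurred in none. The exact pair occurred in only 1 of all windows, so nothing is read from its absence. A match is a description of these letters in this window and is not evidence of binding.

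Across the 9 genes, ATP1B1 and both osmolyte transporters were higher at high glucose in every line and SLC12A2 was lower. In MDA-MB-175, 5 of the 9 were higher and 3 lower with no overlap between the 4 high- and 4 low-glucose cultures, where 26.6% of all tested genes did not overlap (12.7% higher and 13.9% lower). ZR-75-30 had 5 higher and 2 lower, where 42% of all tested genes did not overlap (20.9% and 21.1%). HCC1500 had 4 higher and 1 lower, beside 32.4% of all genes (13.7% and 18.7%), and without replicate 3 it had 5 higher and 2 lower, beside 58.1% (21% and 37.1%). The 3 genes higher without overlap in every line were ATP1B1, SLC6A6 and SLC5A3, beside 2.58% of all genes tested in the 3 lines, or 3.57% without replicate 3. SLC12A2 was lower in every line, beside 3.85%, or 5.96% without replicate 3. These counts come from contrasts known when the genes were chosen, and nothing is read from them.

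All 9 genes passed the filter on low values (at least 0.5 in 4 cultures of a line) in MDA-MB-175 and in ZR-75-30, and 7 of the 9 passed it in HCC1500, which left out FXYD5 and AKR1B1. The median change of the genes that passed the filter was 0.74 in HCC1500 (0.93 without replicate 3), 0.44 in MDA-MB-175 and 0.39 for ZR-75-30, on the log2(value + 1) scale used for all changes below, beside medians of -0.06 (-0.12), -0.02 and 0.01 over all tested genes.

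**Figure D2:**
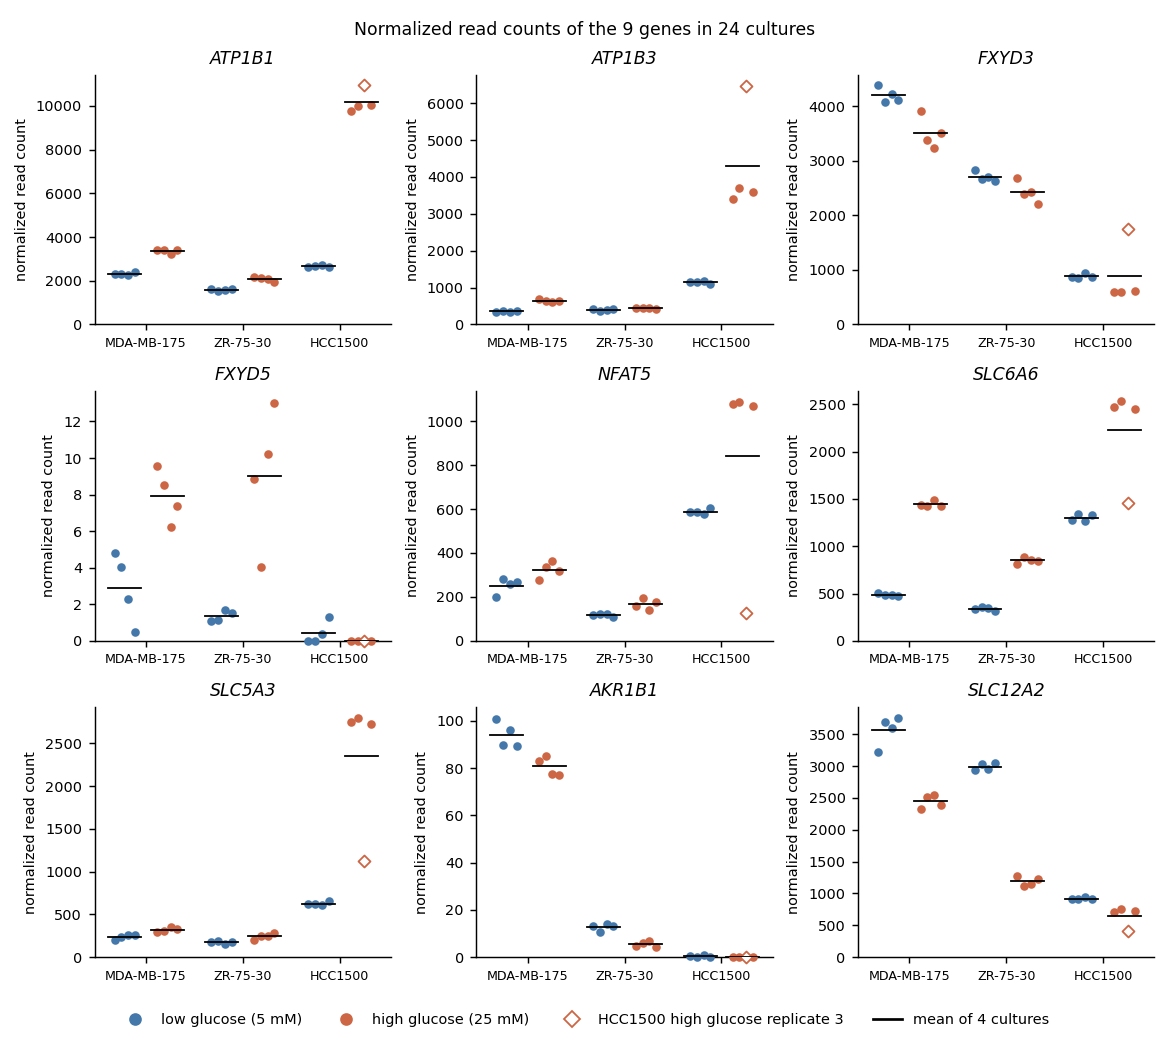
Normalized read counts (vertical axis, linear, from 0) of the 9 genes in each culture, by cell line, with low glucose in blue, high glucose in orange, the mean of 4 cultures as a bar, and HCC1500 high glucose replicate 3 as an open diamond. ATP1B1 reaches its highest values in HCC1500 at high glucose (9786 to 10960.1), and the diamond lies apart from its group for ATP1B3, FXYD3, NFAT5, SLC6A6, SLC5A3 and SLC12A2.

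ATP1B1 encodes the beta subunit that is most widely expressed in epithelia (chr1:169074935-169280230, plus strand, GRCh37). In HCC1500 its normalized read counts were 2639, 2664, 2722 and 2621 in the low-glucose cultures and 9786, 9985, 10960.1 and 10059 in the high-glucose cultures. All 4 high values lay far above all 4 low values, and replicate 3 was the highest. The means were 2662 ± 44.2 and 10198 ± 521 (SD, n = 4 each), a 3.83-fold higher level, with a log2 change of 1.94 ± 0.07 (SE), or 1.90 ± 0.02 without replicate 3.

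The same subunit differed less between conditions in the other two lines. In MDA-MB-175 the counts were 2321, 2304, 2262 and 2422 at low and 3386, 3428, 3235 and 3402 at high glucose, with no overlap. The level was 1.44-fold higher at high glucose (log2 change 0.53 ± 0.04). In ZR-75-30 the counts of 1616, 1531, 1585 and 1627 at low glucose lay under all those at high glucose, which were 2159.6, 2121, 2074 and 1961. The level was 1.31-fold higher (log2 change 0.39 ± 0.04), so the order of the changes was HCC1500, MDA-MB-175 and ZR-75-30, with no test of the difference.

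ATP1B3, the other beta subunit in these cells (chr3:141594966-141645391, plus strand), followed the same order. HCC1500 had counts of 1146, 1140.3, 1179 and 1102 at low glucose and 3391, 3704, 6471 and 3601 at high glucose. Replicate 3 was far above the other 3 high-glucose cultures, which themselves lay above every low-glucose culture. The level was 3.76-fold higher with replicate 3 and 3.12-fold higher without it (log2 changes 1.86 ± 0.19 and 1.64 ± 0.03). In MDA-MB-175 the counts were 352, 356, 339 and 369.8 at low and 694, 644, 615 and 633 at high glucose, without overlap and 1.82-fold higher (log2 change 0.87 ± 0.05).

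In ZR-75-30 the ATP1B3 counts of 423, 367, 387 and 423 at low glucose overlapped those of 449.9, 452, 455 and 412 at high glucose. Replicate 4 at high glucose lay below 2 of the low-glucose cultures. The log2 change was 0.15 ± 0.06.

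Ratios of 2 genes within a culture cancel the factor by which that culture was scaled. The ratio of the beta subunits at high glucose was lower in MDA-MB-175 and higher in ZR-75-30. ATP1B1 to ATP1B3 in the low-glucose cultures of MDA-MB-175 was 6.59, 6.46, 6.68 and 6.55, and in the high-glucose cultures 4.88, 5.32, 5.26 and 5.37. In ZR-75-30 the ratio was 3.82, 4.18, 4.10 and 3.85 at low and 4.80, 4.69, 4.56 and 4.76 at high glucose. Neither line had an overlap between conditions, and the log2 changes were -0.34 ± 0.03 and 0.24 ± 0.04. HCC1500 had 2.30, 2.34, 2.31 and 2.38 at low and 2.89, 2.70, 1.69 and 2.79 at high glucose. Only replicate 3 fell under the low-glucose cultures there, and the log2 change was 0.08 ± 0.18 with it and 0.26 ± 0.03 without it.

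Divided by transcript length, ATP1B1 made up most of the beta subunit reads in every group. Its share was 84.6% ± 0.177 at low and 81.3% ± 0.674 at high glucose in MDA-MB-175, 66.0% ± 0.327 and 67.1% ± 5.73 in HCC1500, and 76.8% ± 0.791 and 79.7% ± 0.365 for ZR-75-30 (SD, n = 4 each). In HCC1500 replicate 3 at high glucose had the lowest share, at 58.5%, and the other 3 high-glucose cultures lay at 69.2% to 70.6%. ATP1B2, a beta subunit of nervous tissue, was not analysed here.

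**Figure D3:**
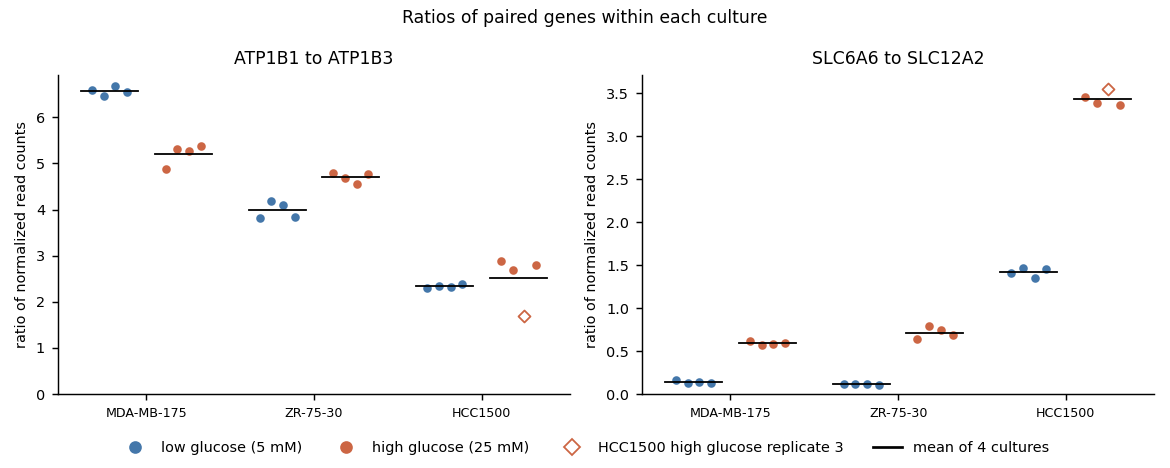
Ratios of normalized read counts within each culture (vertical axes, linear, from 0), by cell line, for ATP1B1 to ATP1B3 and SLC6A6 to SLC12A2. Bars are arithmetic means of 4 cultures and the open diamond is HCC1500 high glucose replicate 3, which lies at 1.69 for ATP1B1 to ATP1B3 and near its group for SLC6A6 to SLC12A2.

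FXYD3, a regulator that binds the pump in epithelial tumors (chr19:35606727-35615228, plus strand), was the most abundant of the 9 genes per kb of transcript at low glucose in both lines other than HCC1500. In MDA-MB-175 its counts were 4393, 4084, 4231 and 4111 at low glucose and 3919.9, 3377, 3243 and 3504 at high glucose. All high-glucose cultures lay under all low-glucose ones, with a log2 change of -0.26 ± 0.05. In ZR-75-30 the counts of 2839.8, 2663, 2696 and 2639 and 2687, 2401, 2425 and 2202 overlapped through high glucose replicate 1 (log2 change -0.16 ± 0.05).

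FXYD3 in HCC1500 depended on replicate 3. Its counts were 874, 848, 942 and 879.8 at low glucose and 596, 599, 1743 and 623 at high glucose. Replicate 3 was the highest of all 8 cultures and the other 3 high-glucose cultures were the lowest. The log2 change was -0.17 ± 0.32 with replicate 3 and -0.55 ± 0.04 without it. FXYD3 shares 1292 bases of exon with ENSG00000285526, an overlapping gene on the same strand that was not analysed here.

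FXYD5, also called dysadherin, is a glycosylated regulator of the pump that is known for lowering cell adhesion (chr19:35645633-35660784, plus strand). It was near the floor, so reads are given in place of levels. MDA-MB-175 had 12, 6, 4 and 1 reads in the low-glucose cultures and 23, 15, 16 and 14 in the high-glucose cultures. Every high-glucose count was above every low-glucose count, and the pooled ratio was 2.64 (95% interval 1.62 to 4.44, exact, counting error only). ZR-75-30 had 2, 2, 3 and 2 reads at low and 17, 6, 24 and 19 at high glucose, again without overlap, with a pooled ratio of 6.74 (95% interval 3.34 to 15.4). HCC1500 had 0, 0, 1 and 3 reads at low glucose and none at high glucose, at or under the floor in each culture. For this reason the planned ratio of FXYD3 to FXYD5 was not computed.

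NFAT5 (chr16:69598997-69738569, plus strand) has the longest transcript of the 9 genes, and its value in HCC1500 depended on replicate 3. HCC1500 had counts of 587, 587, 575 and 606 at low glucose and 1079.6, 1089, 128 and 1070.0 at high glucose. Replicate 3 was the lowest of all 8 cultures and the other 3 high-glucose cultures were the highest. The log2 change was 0.11 ± 0.64 with replicate 3 and 0.87 ± 0.03 without it, a 1.83-fold higher level. With replicate 3 kept, leaving out another single culture put the log2 change as low as -0.15.

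In ZR-75-30 the NFAT5 counts were 116, 124, 121 and 111 at low glucose and 159.9, 194, 142 and 177 at high glucose, without overlap and 1.43-fold higher (log2 change 0.50 ± 0.09). In MDA-MB-175 the counts of 198, 280.1, 258 and 267 and 277, 335, 365 and 319 overlapped through low glucose replicate 2 and high glucose replicate 1 (log2 change 0.37 ± 0.10). NFAT5 shares 1588 bases of exon with a long noncoding RNA on the same strand, and reads in them cannot be told apart.

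SLC6A6, the taurine transporter (chr3:14444076-14530857, plus strand), had the largest change of the 3 osmolyte genes in both lines other than HCC1500. MDA-MB-175 had counts of 505, 486, 484 and 475 at low glucose and 1436, 1428, 1489.7 and 1421 at high glucose. The high-glucose cultures were 2.96-fold higher, with a log2 change of 1.56 ± 0.04, and the spread within either condition was small beside the gap. ZR-75-30 had 336, 354, 349.8 and 319 at low and 814, 884, 852 and 847 at high glucose, 2.50-fold higher and without overlap (log2 change 1.32 ± 0.05).

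SLC6A6 differed least between conditions in HCC1500, where its low-glucose level was highest. Its counts there were 1280.0, 1336, 1269 and 1326 at low glucose and 2469, 2530.3, 1461 and 2447 at high glucose. Replicate 3 lay only a little above the low-glucose cultures, and the other 3 lay far above them. The log2 change was 0.74 ± 0.17 with replicate 3 and 0.93 ± 0.03 without it.

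SLC5A3 is the sodium-coupled myo-inositol transporter (chr21:35445878-35478559, plus strand), whose coding sequence lies in a single exon of a gene that shares its start with MRPS6. HCC1500 had counts of 617, 618, 610.1 and 654 at low glucose and 2749, 2792, 1121 and 2732 at high glucose. All high-glucose cultures were above all low-glucose ones, replicate 3 the least. The level was 3.76-fold higher with replicate 3 and 4.41-fold higher without it (log2 changes 1.82 ± 0.28 and 2.14 ± 0.03).

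The change of SLC5A3 was smaller in the other lines. MDA-MB-175 had 198, 237, 253 and 261 at low and 297, 308, 351 and 329 at high glucose, without overlap (log2 change 0.44 ± 0.08). ZR-75-30 had 179, 187, 156 and 181 at low and 206, 247, 244 and 285 at high glucose, also without overlap (log2 change 0.47 ± 0.09). MRPS6 shares 265 exon bases with SLC5A3 on the same strand. Its log2 changes were 1.52 ± 0.25 in HCC1500 (1.22 ± 0.04 without replicate 3), 0.33 ± 0.05 in MDA-MB-175 and 0.15 ± 0.07 for ZR-75-30. The ratio of SLC5A3 to MRPS6 overlapped between conditions in MDA-MB-175 and ZR-75-30 (log2 changes 0.11 ± 0.13 and 0.33 ± 0.14). In HCC1500 the change of this ratio was 0.30 ± 0.62 with overlap, and 0.92 ± 0.02 without overlap once replicate 3 was left out.

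AKR1B1 is aldose reductase, which reduces glucose to sorbitol (chr7:134127108-134144036, minus strand). It was not higher at high glucose in any line. MDA-MB-175 had counts of 101, 89.8, 96.2 and 89.5 at low and 83.2, 85.2, 77.3 and 77.3 at high glucose, lower without overlap (log2 change -0.22 ± 0.09). ZR-75-30 had 13.3, 10.8, 14.2 and 13.0 at low and 4.69, 6.08, 6.80 and 4.11 at high glucose, 2.37-fold lower at high glucose (log2 change -1.12 ± 0.25). These ZR-75-30 values rest on few reads, 24, 19, 25 and 17 at low and 9, 9, 16 and 6 at high glucose. Their pooled ratio was 0.43 (95% interval 0.29 to 0.64, exact, counting error only). HCC1500 had 1, 0, 2 and 0 reads at low glucose and none at high glucose, at or under the floor in each culture.

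SLC12A2 (NKCC1) carries sodium, potassium and chloride into the cell and is known for raising cell volume (chr5:127419458-127525369, plus strand). It was lower at high glucose in each line. ZR-75-30 had counts of 2941, 3027, 2958 and 3042 at low glucose and 1274, 1121, 1148 and 1225 at high glucose. All high-glucose cultures lay far under all low-glucose cultures, 2.51-fold apart in their means (log2 change -1.33 ± 0.04). MDA-MB-175 had 3215, 3696, 3596 and 3756 at low and 2333, 2520.3, 2546 and 2387 at high glucose, again without overlap (log2 change -0.54 ± 0.05).

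In HCC1500 the SLC12A2 counts were 912, 913, 939 and 913 at low glucose and 715, 749, 412 and 728 at high glucose. Replicate 3 was the lowest, and the other 3 high-glucose cultures also lay under all low-glucose cultures. The log2 change was -0.54 ± 0.18 with replicate 3 and -0.33 ± 0.03 without it. The ratio of SLC6A6 to SLC12A2, chosen after the values were seen, was higher at high glucose without overlap in every line. The geometric means at low and high glucose were 0.137 and 0.590 for MDA-MB-175, 0.113 and 0.713 for ZR-75-30, and 1.42 and 3.43 for HCC1500, or 3.40 without replicate 3.

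**Figure D4:**
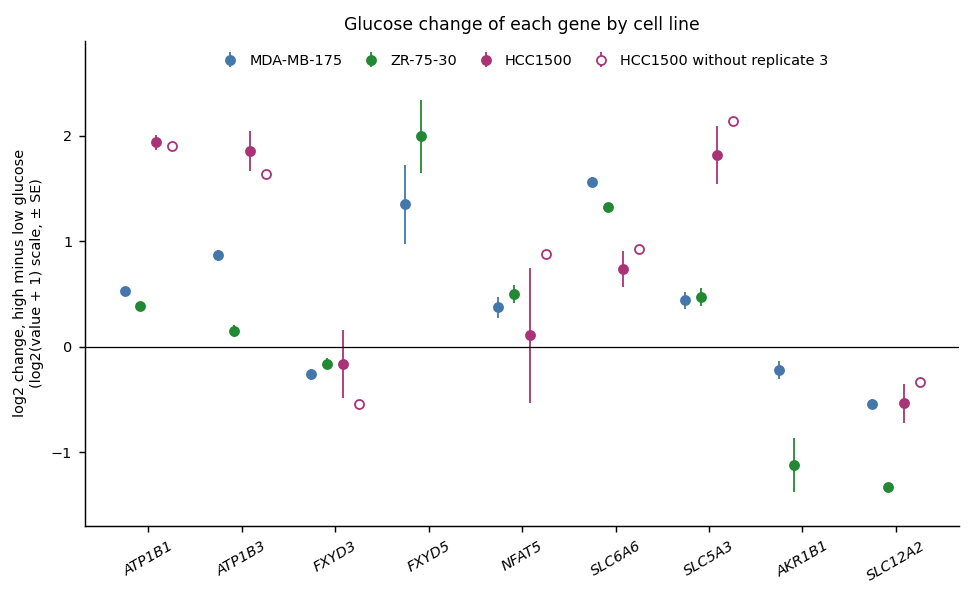
Log2 change from low to high glucose (log2(value + 1) scale, vertical axis) of each gene in MDA-MB-175 (blue), ZR-75-30 (green) and HCC1500 (purple, open without high glucose replicate 3), with bars of 1 SE of the limma fit. ATP1B1, SLC6A6 and SLC5A3 lie above 0 and SLC12A2 below 0 in every line, while FXYD5 and AKR1B1 have no value in HCC1500, where they were not fitted.

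Between lines at low glucose, HCC1500 had more of the beta subunit ATP1B3, NFAT5 and both osmolyte transporters, and less FXYD3 and SLC12A2, than either other line. ATP1B3 was 3.22-fold higher in HCC1500 than in MDA-MB-175, NFAT5 2.35-fold, SLC6A6 2.67-fold and SLC5A3 2.63-fold. FXYD3 was 4.75-fold and SLC12A2 3.88-fold higher in MDA-MB-175 than in HCC1500. AKR1B1 had a mean of 94.1 ± 5.42 in MDA-MB-175 and 12.8 ± 1.45 in ZR-75-30, and no more than 2 reads in any HCC1500 culture. The 4 cultures of each line overlapped for FXYD5 in all 3 pairs and for ATP1B3 between MDA-MB-175 and ZR-75-30, and for no other of the 9 genes, where 63.5% to 74.5% of all genes did not overlap between a pair of lines.

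Per kb of transcript, the order of the levels also differed. In MDA-MB-175 at low glucose, FXYD3 (3051 ± 102 per kb) lay above ATP1B1 (1050.2 ± 30.5) and SLC12A2 (519 ± 35.4). ATP1B3 (192 ± 6.93) came next, then SLC6A6 (74.9 ± 1.98) and AKR1B1 (69.1 ± 3.98), whose cultures overlapped, with SLC5A3 (20.5 ± 2.43) and NFAT5 (18.9 ± 2.74) next to each other and overlapping in their cultures. In ZR-75-30 FXYD3 (1966 ± 65.5) lay above ATP1B1 (717 ± 19.3) and SLC12A2 (435 ± 7.30). In HCC1500 ATP1B1 (1201 ± 19.9) was first, and FXYD3 (643 ± 28.9) and ATP1B3 (618 ± 17.0) overlapped. At high glucose without replicate 3, ATP1B1 in HCC1500 reached 4487 ± 63.7 per kb and ATP1B3 1930.3 ± 86.3. In bulk RNA, fewer cells expressing a gene and less of its RNA per cell cannot be told apart.

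The patterns of the genes over 23 cultures (replicate 3 left out) are given as Pearson correlations of log2(value + 1), without p-values, since the cultures share 3 lines and 2 conditions. ATP1B3 and SLC5A3 had r = 0.98 (0.92 after removing the mean of each line), and ATP1B1 and SLC5A3 0.92 (0.97). SLC6A6 and SLC12A2 had -0.75 (-0.87). Among 13280 genes with a mean of at least 10, the gene most like ATP1B1 was MRPS6 (0.964), followed by ZHX2 (0.953). The most alike were RNF152 (0.982) for ATP1B3, C19orf21 (0.996) for FXYD3, RFK (0.974) for SLC6A6, SLC19A2 (0.982) for SLC5A3, KRT15 (0.994) for AKR1B1 and SRSF7 (0.981) for SLC12A2. ADORA2A (0.987) was among the 2 most like NFAT5, and FXYD5 was too low for this comparison. After removing the mean of each line, KRT15 had 0.83 with AKR1B1, which had no more than 2 reads in any HCC1500 culture. The other genes named as alike then ran from 0.88 for ADORA2A to 0.98 for MRPS6.

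The other genes of these pathways were taken from 4 lists, of which 66 of 79 genes were in the table. In MDA-MB-175, 14 of 62 tested genes rose and 9 fell (limma, adjusted p under 0.05), or 37.1%, beside 25.7% of all tested genes (11.9% higher and 13.7% lower). In ZR-75-30, 30 of 54 rose and 6 fell, or 66.7%, beside 46% of all tested genes (23.4% and 22.7%). In HCC1500 10 of 57 rose and 6 fell, or 28.1%, beside 20.5% (7.46% and 13%). Without replicate 3, 20 of 56 rose and 25 fell in HCC1500, or 80.4%, beside 58.5% (20.9% and 37.7%). Over all genes called in HCC1500, 36.4% were higher at high glucose as deposited and 48.9% after median-of-ratios scaling. Of the pathway genes called there, 62.5% were higher as deposited and 52.2% after scaling to a fixed total. The rescaled shares of all genes and of pathway genes come from different scalings and cannot be compared with each other. Without replicate 3, 39 of 56 were called after median-of-ratios scaling (22 higher and 17 lower), and the median change of all genes moved from -0.12 to -0.01. The change differed between lines for 29 of 64 genes (limma interaction, beside 29.3% of all genes), and for 36 of 64 without replicate 3 (beside 48.6%).

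Of the cation-chloride cotransporters and their WNK kinases, 6 of 12 rose and 2 fell in ZR-75-30, against 4 and 2 of 15 in MDA-MB-175 and 1 and 2 of 12 in HCC1500. The osmolyte list also holds genes that neither carry nor make osmolytes, namely NFATC1 to NFATC4 and HSPA4L. On this list, 10 of 17 rose and 1 fell in ZR-75-30, 5 and 2 of 17 in MDA-MB-175, and 4 and 2 of 17 in HCC1500. NFATC1, NFATC2 and HSPA4L were among the rising genes in ZR-75-30, and NFATC1 was among the falling genes in HCC1500. Of the sodium entry, volume and water channel genes, 11 of 21 rose and 3 fell in ZR-75-30, 5 and 3 of 25 in MDA-MB-175, and 4 and 0 of 23 in HCC1500. Without replicate 3 the HCC1500 counts were 4 rising and 6 falling of 12 for the cotransporters and 6 and 11 of 22 for the channels. For the osmolyte list they were 9 and 6 of 17, with HSPA4L among the rising genes and NFATC1, NFATC3 and NFATC4 among the falling ones. The Na,K-ATPase and FXYD list had 3 rising of 4 in ZR-75-30 and 2 falling of 5 in MDA-MB-175. It had 1 rising and 2 falling of 5 in HCC1500, with or without replicate 3. Over all tested genes, 23.4% rose and 22.7% fell in ZR-75-30, and 11.9% and 13.7% in MDA-MB-175. In HCC1500 these shares were 7.46% and 13%, or 20.9% and 37.7% without replicate 3.

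**Figure D5:**
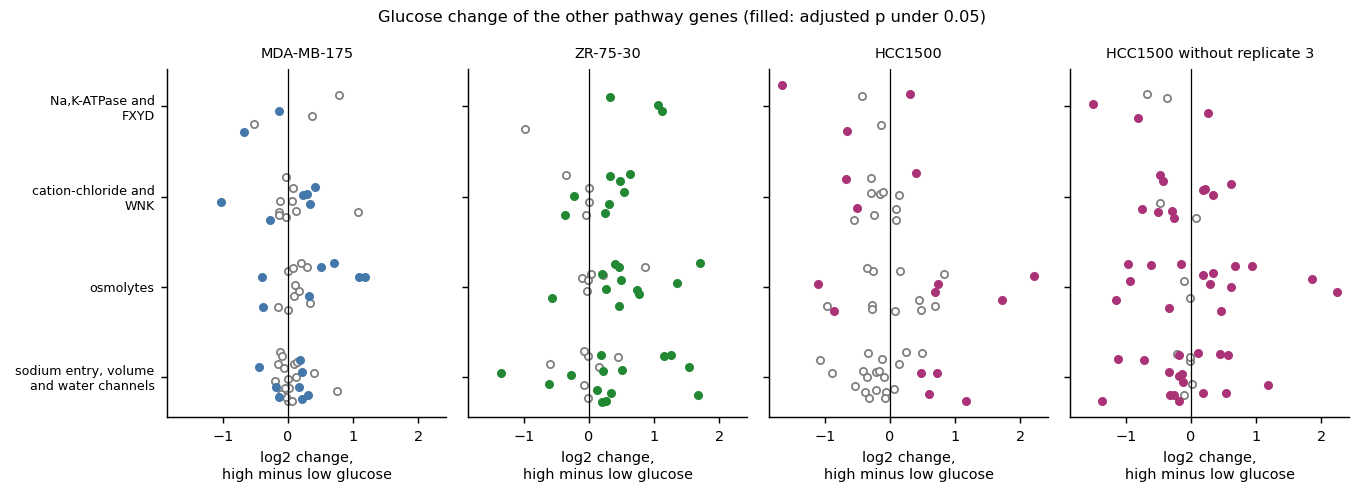
Log2 change from low to high glucose (horizontal axis, log2(value + 1) scale) of the other pathway genes by list (rows) in each line, with HCC1500 shown with and without high glucose replicate 3. Points are genes, filled where adjusted p was under 0.05 by limma, spread vertically at random within a row, and in ZR-75-30 most filled points lie above 0 (30 of 36).

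SLC38A2 is an amino acid transporter that takes up neutral amino acids under osmotic stress. Of the other pathway genes named here, it rose furthest in MDA-MB-175 and HCC1500. It went from 953 ± 34.7 to 2174 ± 88.9 (log2 change 1.19 ± 0.04, adjusted p = 1.24e-11) by limma in MDA-MB-175. In HCC1500 it went from 4699 ± 63.2 to 15734 ± 2624 (log2 change 1.73 ± 0.13, adjusted p = 0.000103) by limma, and the change was 1.86 ± 0.02 without replicate 3. SLC6A8, the creatine transporter, went from 234 ± 8.14 to 599 ± 40.9 (log2 change 1.35 ± 0.05, adjusted p = 9.45e-13) in ZR-75-30 and from 114 ± 8.03 to 193 ± 39.5 (log2 change 0.74 ± 0.14, adjusted p = 0.00721) in HCC1500 by limma, where it was 0.61 ± 0.07 without replicate 3. Both differed between lines (interaction adjusted p = 1.21e-08 and 3.69e-05 by limma, or 1.79e-17 and 1.62e-08 without replicate 3).

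In MDA-MB-175, GDPD5, which breaks down the osmolyte glycerophosphocholine, went from 302 ± 29.5 to 644 ± 23.3 (log2 change 1.10 ± 0.06, adjusted p = 4.04e-09) by limma. AKR1B10, a reductase whose sequence is close to that of AKR1B1, so that reads could be split between them, went from 26.7 ± 4.12 to 43.9 ± 5.53 (log2 change 0.70 ± 0.15, adjusted p = 0.00235) by limma. SLC12A1, a renal relative of SLC12A2, fell from 17.2 ± 3.18 to 7.95 ± 1.44 (log2 change -1.02 ± 0.21, adjusted p = 0.00205) by limma. The sodium-proton exchanger SLC9A2 fell from 510.4 ± 28.0 to 373 ± 11.7 (log2 change -0.45 ± 0.05, adjusted p = 7.82e-06) by limma.

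In ZR-75-30, the sodium-glucose cotransporter SLC5A1 went from 4.69 ± 2.28 to 16.5 ± 4.15 (log2 change 1.67 ± 0.30, adjusted p = 0.000164) and the kinase SGK1, known for raising sodium uptake, from 7.32 ± 3.37 to 21.9 ± 1.63 (log2 change 1.54 ± 0.26, adjusted p = 8.23e-05) by limma. The water channel AQP5 fell from 28.3 ± 6.13 to 10.7 ± 3.59 (log2 change -1.35 ± 0.25, adjusted p = 0.000182) by limma. LRRC8D, a subunit of the volume-regulated anion channel, fell from 338 ± 29.4 to 219.7 ± 9.44 (log2 change -0.61 ± 0.06, adjusted p = 2.49e-07) and the inositol monophosphatase IMPA2 from 133 ± 7.86 to 90.1 ± 8.20 (log2 change -0.56 ± 0.09, adjusted p = 3.21e-05) by limma.

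In HCC1500, SORD, which oxidizes sorbitol to fructose, fell from 507 ± 16.9 to 281 ± 35.2 (log2 change -0.86 ± 0.10, adjusted p = 0.000659) by limma. NFATC1, a calcium-regulated relative of NFAT5, fell from 11.4 ± 2.16 to 4.78 ± 1.15 (log2 change -1.10 ± 0.22, adjusted p = 0.0093) by limma. AQP3, a channel for water and glycerol, rose from 22.7 ± 1.51 to 38.9 ± 9.86 (log2 change 0.72 ± 0.18, adjusted p = 0.0225) and SLC12A8 fell from 39.8 ± 5.70 to 24.9 ± 6.14 (log2 change -0.68 ± 0.20, adjusted p = 0.0437) by limma. Without replicate 3 the log2 changes were -0.94 ± 0.04 for SORD, -1.15 ± 0.26 for NFATC1, 0.56 ± 0.15 for AQP3 and -0.76 ± 0.18 for SLC12A8, each with an adjusted p under 0.05. The AQP3 call was lost without any 1 of the 4 low-glucose cultures (adjusted p from 0.000128 to 0.0719 over 18 alternatives). The SLC12A8 call was lost under 8 of 18 alternatives, among them no filter and leaving out any low-glucose culture or high glucose replicate 2 or 4 (adjusted p from 0.000834 to 0.126).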

How the data were processed

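RNA of 24 cultures was sequenced (Illumina HiSeq) and given as 1 table of normalized read counts. The methods name Trimmomatic, TopHat, DESeq2 for differential expression and edgeR for normalized counts, and the submitters' processing notes also name edgeR. The notes name the hg38 build and the methods hg19 with Ensembl annotation, so the build of the deposited table is not settled. Whether reads were counted by strand is not given in the sources used here. The deposited signal values are whole reads divided by 1 factor per sample: at a tolerance of 0.02 reads, 100% of values came out whole, which gave the depth of each library. The authors' factor was not identified. Gene positions are from the GRCh37 lift-over of GENCODE, and promoter windows from RefSeq on GRCh38.p14.

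The 9 genes and the gene lists were chosen with earlier results of these data known. The 18889 genes (260 at 0 in every culture) were tested within each line with limma 3.58.1 (R 4.3.3, intensity trend) on log2(value + 1), 4 cultures against 4, for genes at 0.5 or more in at least 4 cultures, with Benjamini-Hochberg adjustment at 0.05. The script was tested on simulated data. The difference between lines was an F test of the interaction over 24 cultures. A fold change on this scale understates the change of low genes. Groups were called not overlapping where all values of one lay above all of the other. Intervals of pooled reads are exact and, like the floor of 3 reads, cover counting error only. Pathway genes were named where they were the 3 called genes per line and direction with the largest change among those with no overlap and a mean of at least 10 in 1 condition. Some genes this rule names are not reported here. The 2 genes most like each of the 9 were ranked by correlation. Of the ratios given here, ATP1B1 to ATP1B3 was planned, SLC5A3 to MRPS6 was not, and SLC6A6 to SLC12A2 was added after the values were seen. Other ratios were computed and are not reported here.

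Alternatives were other pseudocounts, no filter, other scalings, edgeR 4.0.16 and DESeq2 1.42.0 on the recovered reads, a replicate block, leaving out each culture and, added after the data were seen, 2 rescalings without HCC1500 high glucose replicate 3.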

Additional observations from a re-analysis of the deposited data

Results flagged for a closer look

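Among the 9 genes, 49 groups of 4 cultures were examined for a culture far from the rest (groups with all values equal or the highest under 3 were not), and 8 were picked out, where chance picks out about 1 in 20. Of these, 6 were HCC1500 high glucose replicate 3, with normalized read counts of 6471 for ATP1B3 and 1743 for FXYD3, above the group, and of 128 for NFAT5, 1461 for SLC6A6, 1121 for SLC5A3 and 412 for SLC12A2, below it. The other 2 were ATP1B3 in ZR-75-30 high glucose replicate 4, at 412 with the other cultures at 449.9 to 455, and SLC12A2 in HCC1500 low glucose replicate 3, at 939 with the other cultures at 912 to 913.

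The change with glucose differed between lines for 12 of the named pathway genes, each by the limma interaction test with Benjamini-Hochberg adjustment. Such genes were named for a large change within a line, which favours a difference between lines in advance. Over all genes tested, 29.3% differed, or 48.6% without HCC1500 high glucose replicate 3. Nothing is therefore read from the count of 12. For SLC38A2 MDA-MB-175 had a log2 change of 1.19, ZR-75-30 of 0.25 and HCC1500 of 1.73 (adjusted p = 1.21e-08 by limma). For NFATC1 they were 0.34, 0.74 and -1.10 in the same order (adjusted p = 1.75e-06 by limma). For SORD they were -0.40, -0.03 and -0.86 (adjusted p = 2.81e-05 by limma). For SLC6A8 they were 0.32, 1.35 and 0.74 (adjusted p = 3.69e-05 by limma), and for LRRC8D -0.09, -0.61 and -0.34 (adjusted p = 0.00244 by limma). For SGK1 they were -0.05, 1.54 and 1.16 (adjusted p = 0.00297 by limma), and for SLC9A2 -0.45, 0.16 and -0.54 (adjusted p = 0.00654 by limma). For SLC12A8 they were -0.04, -0.05 and -0.68 (adjusted p = 0.0136 by limma). SLC12A1 passed the filter within MDA-MB-175 alone, with -1.02 (adjusted p = 0.00485 by limma). SLC5A1 had 0.40 in MDA-MB-175 and 1.67 in ZR-75-30 (adjusted p = 0.0067 by limma), AQP5 had -0.12 and -1.35 in these lines (adjusted p = 0.016 by limma), and AQP3 had -0.16 in MDA-MB-175 and 0.72 in HCC1500 (adjusted p = 0.021 by limma). These values are from all cultures. Without HCC1500 high glucose replicate 3 the same 12 genes had an interaction adjusted p of at most 0.0109 by limma. GDPD5 then joined them, at an adjusted p of 1.25e-06 by limma against 0.0571 with all cultures. The HCC1500 log2 changes without that culture were 1.86 for SLC38A2, -1.15 for NFATC1, -0.94 for SORD, 0.61 for SLC6A8, -0.33 for LRRC8D, 1.19 for SGK1, -0.76 for SLC12A8 and 0.56 for AQP3. SLC9A2 had -0.35 without it and -0.54 with it. GDPD5 had 0.18 without it and 0.45 with it.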

How the results depend on the processing

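Whether replicate numbers pair the cultures was not settled. The mean of each gene within its condition was first subtracted, and the remaining deviations of low- and high-glucose cultures were correlated, not their whole profiles. Deviations of same-numbered cultures had mean correlations of 0.02 in HCC1500, 0.04 in ZR-75-30 and 0.05 in MDA-MB-175. Those of differently numbered cultures had -0.007, -0.014 and -0.017 in the same order. In that order, the deviations of 2, 1 and 1 of the 4 low-glucose cultures correlated best with their own number. With a replicate block, glucose calls numbered 1964 (3350 without it), 7542 (7290) and 4525 (4368) in that order, and the AQP3 and SLC12A8 calls in HCC1500 were lost. Leaving out 1 culture gave 3529 to 5038 glucose calls and 18 to 24 pathway calls (23 with all cultures) in MDA-MB-175, 6746 to 7135 and 32 to 35 (36) in ZR-75-30, 2015 to 9504 and 10 to 45 (16) in HCC1500, and 4765 to 8809 genes that differed between lines (5316). The highest HCC1500 counts came without high glucose replicate 3 and the lowest, 2015 to 2104, without 1 of the low-glucose cultures. With replicate 3 omitted, 9245 genes and 39 pathway genes were called after median-of-ratios scaling, and 9312 and 45 after scaling to a fixed total. The HCC1500 glucose calls were 1221 higher and 2129 lower as deposited, 1723 and 1800 with median-of-ratios scaling, 1709 and 1867 with edgeR, and 2323 and 2109 with DESeq2. The HCC1500 pathway calls were 10 and 6 as deposited and 12 and 11 after scaling to a fixed total. The cause was not tested. No named pathway gene changed sign under any alternative run, while the log2 change of NFAT5 in HCC1500 ran from -0.15 to 0.87 with 1 culture left out. Depth limits FXYD5 and AKR1B1, which were at or under 3 reads in every HCC1500 culture.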
